A study of Mus musculus with 4 samples.

Results

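A set of 9 imprinted growth control genes was read in stem and progenitor cells of mouse bone marrow, before and after 5-fluorouracil (5FU) and in 2 genotypes. The 9 genes were H19, Igf2r, Dlk1, Meg3, Peg3, Ndn, Grb10, Plagl1 and Mest, taken by their symbols in the array's annotation. Of these, 8 had a probe set that names 1 gene, out of 22180 genes with such a probe set, and 5 passed the floor on low values, out of 14061 genes. The floor was 5.475 on the log2 scale, the median of all values, and a gene passed it when at least 1 array reached it.

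Each of 4 groups was 1 Affymetrix array of LSK cells, the lineage-negative, Sca-1-positive and c-Kit-positive marrow fraction, taken from 4-month-old C57/B6 males. Ctrl and AMKO mice were each sampled at day 0 without 5FU, here called basal, and 8 days after an injection of 150 mg/kg 5FU. Where 4 values are listed together below, they stand for Ctrl then AMKO at basal, followed by Ctrl then AMKO at day 8. 5FU is a uracil analog that kills cycling cells, and the study used it as the stimulus for the stem cells. AMKO is a genotype label that the sources used here do not spell out, so the alleles that the groups carry or share, the driver of any deletion and the number of mice behind an array are not known. With 1 array per group no value below has a replicate error, and a difference between 2 arrays is a description. Standard errors come from an additive limma model of all 4 arrays, with terms for treatment and genotype. A gene's error there is the gap between the 5FU differences of Ctrl and AMKO, drawn toward a value pooled over all genes.

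Imprinted genes are transcribed from the copy inherited from 1 parent, because marks such as DNA methylation, laid down in the egg or sperm, set the parental copies apart. Many of them act on growth: paternally expressed genes tend to promote it and maternally expressed genes to restrain it. In blood stem cells, imprinted genes of this kind are known for high expression in quiescent long-term stem cells and for a part in restraining insulin-like growth factor (IGF) signalling. Igf2r encodes the receptor that carries IGF2 to lysosomes, H19 and Meg3 are noncoding RNAs, Grb10 encodes an adaptor that inhibits insulin and IGF1 receptors, Dlk1 a Notch-like membrane ligand, Ndn the MAGE-family protein necdin, which binds E2F1 and p53, Peg3 and Plagl1 zinc finger transcription factors, and Mest a hydrolase-like membrane protein. Of these, Igf2r, H19, Meg3 and, in most tissues, Grb10 are expressed from the maternal copy, and the rest from the paternal copy.

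Promoter windows are shown for Meg3 and for Igf2r and Ndn, the members with the lowest 5FU differences in Ctrl. Igf2r is shown with its imprinted neighbour Airn, which was lower in both genotypes. Ndn is shown with its neighbour Mkrn3, which differed by -1.06 in Ctrl and -0.04 in AMKO. The windows run from 250 bases before to 50 after a RefSeq start in GRCm38.p6 and read 5′ to 3′ on the gene's strand. Capitals mark matches on either strand to TGCCGC (the ZFP57 hexamer of imprinting control regions), GCCATNTT (YY1), CACGTG (the E-box) and TGACGTCA (the cAMP response element, CRE). No match in these windows overlapped another.
Igf2r, chr17:12769657-12769956, minus strand: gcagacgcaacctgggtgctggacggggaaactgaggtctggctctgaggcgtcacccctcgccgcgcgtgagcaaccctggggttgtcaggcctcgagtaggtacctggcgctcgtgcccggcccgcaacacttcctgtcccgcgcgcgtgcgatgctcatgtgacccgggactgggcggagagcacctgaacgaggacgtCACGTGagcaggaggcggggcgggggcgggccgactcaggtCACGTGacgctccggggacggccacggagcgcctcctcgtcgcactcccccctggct
Airn, chr17:12741061-12741360, plus strand: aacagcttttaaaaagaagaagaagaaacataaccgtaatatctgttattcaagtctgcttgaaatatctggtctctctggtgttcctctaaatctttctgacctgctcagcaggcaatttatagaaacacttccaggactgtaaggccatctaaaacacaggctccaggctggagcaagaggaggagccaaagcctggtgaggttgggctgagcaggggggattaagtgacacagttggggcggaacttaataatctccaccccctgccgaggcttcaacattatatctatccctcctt
Ndn, chr7:62348027-62348326, plus strand: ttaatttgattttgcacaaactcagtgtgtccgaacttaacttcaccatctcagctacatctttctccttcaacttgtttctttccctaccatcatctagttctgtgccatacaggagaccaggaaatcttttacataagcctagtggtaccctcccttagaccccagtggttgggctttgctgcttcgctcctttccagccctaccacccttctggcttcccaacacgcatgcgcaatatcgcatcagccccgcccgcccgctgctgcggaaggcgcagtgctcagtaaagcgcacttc
Mkrn3, chr7:62420104-62420403, minus strand: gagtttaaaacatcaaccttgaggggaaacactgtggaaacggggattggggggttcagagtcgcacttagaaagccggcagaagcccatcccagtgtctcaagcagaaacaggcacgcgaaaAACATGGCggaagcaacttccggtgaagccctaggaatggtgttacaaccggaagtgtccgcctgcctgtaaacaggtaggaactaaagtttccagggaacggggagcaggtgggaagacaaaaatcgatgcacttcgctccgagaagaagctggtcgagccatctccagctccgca
Meg3, chr12:109540746-109541045, plus strand: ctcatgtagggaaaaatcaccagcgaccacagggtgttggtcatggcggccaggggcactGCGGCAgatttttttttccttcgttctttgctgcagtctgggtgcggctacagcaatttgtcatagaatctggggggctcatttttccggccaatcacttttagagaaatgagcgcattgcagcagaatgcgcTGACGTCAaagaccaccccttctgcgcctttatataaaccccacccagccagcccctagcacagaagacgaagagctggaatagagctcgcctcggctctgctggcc

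The Igf2r window held 2 E-boxes, a motif present in 7.15% of 32851 promoter windows of the same length, and 34 CpG dinucleotides, a count that 6.95% of windows exceeded. The Airn window held none of the 4 motifs and 3 CpG. The Ndn window held none of the 4 motifs and 11 CpG, and the Mkrn3 window held 1 YY1 match, which 6.05% of windows have. The first Meg3 window held 1 ZFP57 hexamer, found in 11.6% of windows, and 1 CRE, found in 1.79%; the Peg3 window also held 1 CRE. Among the other members with a window, ZFP57 hexamers were found at the first Grb10 start (1), at Plagl1 (1) and at the second Mest start (2, which the overlapping window of the third start also holds). The Plagl1 window also held 1 E-box. A match is a run of letters and says nothing of binding, and a window without one says only that these letters are absent from it.

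All 13 stem and progenitor markers with a probe set naming 1 gene were at or above the floor in every array, among them Kit at 11.84 and 11.87 at basal and 11.08 and 11.16 at day 8. Their summed linear level was 13561 and 13996 at basal and 8956 and 10148 at day 8. Most were lower at day 8: 11 in Ctrl and 10 in AMKO, with 2 and 3 higher. Over all 14061 genes, 6880 were lower in Ctrl and 6584 in AMKO. The median 5FU difference of the 13 markers was -0.76 in Ctrl and -0.63 in AMKO, against 0.01 and 0.03 over all genes past the floor. The number at least 2-fold lower was 5 in Ctrl (Procr, Gata2, Fgd5, Hoxb5 and Robo4) and 2 in AMKO (Hoxb5 and Robo4). Over all genes past the floor, 4.46% in Ctrl and 3.55% in AMKO were that much lower. In Ctrl 2 markers were at least 2-fold higher, against 5.02% of all genes. They were Flt3 (1.57 in Ctrl and 0.52 in AMKO) and Cd34 (1.03 and 0.64), both markers of multipotent progenitors. Among the lower ones, Fgd5, a stem cell reporter gene, differed by -1.41 and -0.97, and Hoxb5 by -1.30 and -1.07. In a sorted bulk population, fewer stem cells and less RNA of a gene per cell cannot be told apart, and this holds for every difference here.

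Both Ctrl arrays carried markers of other cells. The Ctrl day 8 array had all 14 listed neutrophil and granule genes at or above the floor, against 5 to 8 in the other arrays, and a summed level on the linear scale of 28213 against 878 to 994. Camp, Ngp and Ltf led there. B-lineage genes summed to 5547 against 624 to 666, monocyte and macrophage genes to 1438 against 488 to 777, and erythroid genes to 1208 against 446 to 492. The Ctrl basal array had 24 of 26 skeletal muscle genes at or above the floor, against 13 to 17, with a summed level of 6509 against 1494 to 1883 and Acta1, Tnni2 and Atp2a1 leading. Their part in the Ctrl differences was not tested. The AMKO pair of arrays, in which the neutrophil sum was 902 and 994 and the muscle sum 1754 and 1494, gives each 5FU difference at like sums of those lists. The AMKO pair was not free of other markers. All 8 monocyte and macrophage genes past the floor were higher at day 8, with a median difference of 0.43 and sums of 574 and 777. In AMKO, 7348 of all 14061 genes were higher. Csf1r, Cd68, C1qa and C1qb reached the floor in both AMKO arrays and differed by 0.32 to 0.81. Ly86, Ccr2 and C1qc lay under the floor in both AMKO arrays and Vcam1 at basal, so their differences have an uncertain size. Of the 14 neutrophil genes, 8 were higher and 6 lower, with a median difference of 0.06. In AMKO, 5 of the 14 reached the floor at basal and 8 at day 8. Camp, Ltf, Retnlg, Mmp8 and Mmp9 lay under it in both AMKO arrays, so nothing is read from the count of directions. The 2 neutrophil genes that were at least 2-fold higher were S100a8 (1.21), which lay under the floor at basal, and Cxcr2 (1.12). Endothelial genes had lower sums at day 8 in both genotypes, 3273 and 3009 at basal against 2131 and 2450. They did not differ one way: of 7 past the floor, 5 were lower and 2 higher in each genotype. The medians were -0.27 in Ctrl and -0.39 in AMKO. Kdr differed by -2.86 and -1.33 and Eng by -1.19 and -0.82, while Pecam1 differed by 0.04 and 0.53. Cdh5 was higher in Ctrl (0.71) and Emcn in AMKO (0.47). Blood stem cells are also known to express some of this list. The part of these lists in the members' differences was not tested. Stromal genes, a compartment where imprinted genes are known to be active, summed to between 792 and 865 in the 4 arrays, and 8 of the 17 with a probe set naming 1 gene passed the floor. Lepr, Pdgfra, Lum, Adipoq and Kitl lay under it in all arrays, while Pdgfrb stood at 7.69, 7.70, 7.35 and 6.51 and the collagen genes Col1a1, Col1a2 and Col3a1 between 5.88 and 6.46.

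Igf2r was lower at day 8 in both genotypes. Its log2 values were 7.04 in Ctrl basal, 6.90 in AMKO basal, 5.98 in Ctrl day 8 and 5.88 in AMKO day 8. Both day 8 arrays lay below both basal arrays, and within a time the genotypes were 0.14 and 0.10 apart. The 5FU difference was -1.06 in Ctrl and -1.02 in AMKO, which are 2.08-fold and 2.03-fold lower. Of all genes past the floor, 3.88% had a lower difference in Ctrl and 3.24% in AMKO, and 1.98% were at least 2-fold lower in both. With quantile normalization and with median centring the AMKO difference of Igf2r was -0.99 and -0.91, short of 2-fold. The averaged 5FU difference was -1.04 with a standard error of 0.15, and its limma adjusted p of 0.0732 missed the threshold of 0.05 over all genes. It passed with quantile normalization (adjusted p 0.0462) and with robust estimation (0.0347), over a range of 0.0347 to 0.17 in 8 alternatives.

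Airn, the paternally expressed noncoding RNA that overlaps Igf2r in antisense and silences its paternal copy, was lower in the same arrays. Its log2 values were 6.11 and 6.12 in Ctrl and AMKO at basal, and 4.88 and 4.98 at day 8, both under the floor. The 5FU differences were -1.23 and -1.14, with an averaged difference of -1.19 ± 0.18 (limma SE, adjusted p 0.0732). Airn passed the floor only through its basal arrays, so the size of its difference is uncertain. Whether the labelling kept strands apart is not given in the sources used here, so signal shared between the overlapping transcripts was not tested.

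Ndn had the lowest 5FU difference among the members in Ctrl, and a smaller one in AMKO. Its log2 values were 7.28 in Ctrl basal, 6.80 in AMKO basal, 5.73 in Ctrl day 8 and 6.39 in AMKO day 8. The highest and the lowest value were both in Ctrl, in the array with muscle markers and the array with neutrophil markers, and the AMKO arrays lay between them. The 5FU difference was -1.55 in Ctrl, or 2.93-fold lower, and -0.41 in AMKO, or 1.33-fold lower. The AMKO minus Ctrl difference of these 2 was 1.14, which was not tested; 5.5% of genes past the floor had a gap of at least 2-fold, and 1 of 5 members. The averaged difference was -0.98 ± 0.33 (limma SE, adjusted p 0.177), or -0.74 without the Ctrl basal array and -0.65 without the Ctrl day 8 array. Mkrn3, a paternally expressed zinc finger gene of the same cluster, had values of 6.88, 6.31, 5.82 and 6.27, with 5FU differences of -1.06 in Ctrl and -0.04 in AMKO. The cluster did not move as a block: Peg12 differed by 0.04 and 0.28, the maternally expressed ubiquitin ligase gene Ube3a by 0.20 and 0.51, and Atp10a by -0.28 and -1.02.

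**Figure D1:**
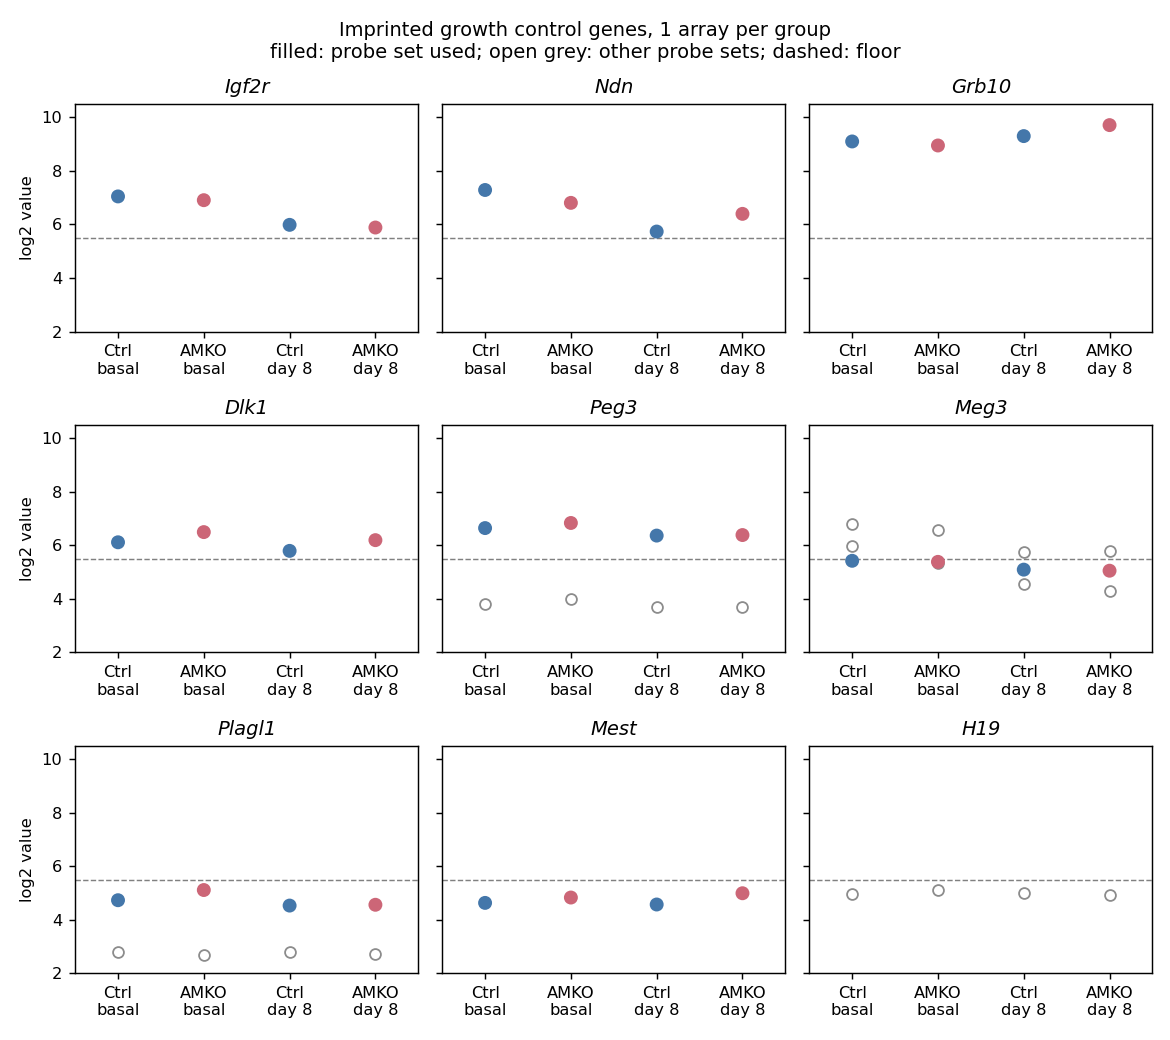
Log2 values of the 9 genes in each of the 4 arrays (blue, Ctrl; red, AMKO), with the floor of 5.475 dashed; filled points are the probe set used and open grey points other probe sets naming the gene, alone or with others. Igf2r and Ndn are lower in both day 8 arrays, Grb10 is higher in both, and Plagl1, Mest and the H19 probe set lie under the floor in all 4 arrays.

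Grb10 was the member with higher values after 5FU. Its log2 values were 9.09 in Ctrl basal, 8.94 in AMKO basal, 9.29 in Ctrl day 8 and 9.70 in AMKO day 8. Both day 8 arrays lay above both basal arrays, by a margin of 0.20 at the smallest. The 5FU difference was 0.20 in Ctrl and 0.76 in AMKO, or 1.15-fold and 1.69-fold higher, and the averaged difference was 0.48 ± 0.19 (limma SE, adjusted p 0.212). Ddc, its imprinted neighbour, differed by -0.08 and -0.07.

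Dlk1 and Peg3 differed less. Dlk1 had log2 values of 6.11 in Ctrl basal, 6.49 in AMKO basal, 5.79 in Ctrl day 8 and 6.19 in AMKO day 8, with 5FU differences of -0.32 and -0.30 (averaged -0.31 ± 0.16, limma adjusted p 0.297; -0.50 without the Ctrl basal array and -0.11 without the Ctrl day 8 array). The AMKO day 8 value lay above the Ctrl basal value, so the times overlapped. Peg3, a regulator of p53-linked cell death, had values of 6.64, 6.83, 6.36 and 6.38 in the 4 arrays. Both day 8 arrays lay below both basal arrays, with 5FU differences of -0.28 and -0.45 (averaged -0.365 ± 0.16, limma adjusted p 0.238). Of all genes past the floor, 22.7% in Ctrl and 23.0% in AMKO had a lower difference than Dlk1, and a lower one than Peg3 was found for 25% in Ctrl and 15.3% in AMKO. A second Peg3 probe set, shared with its antisense gene Peg3os, lay between 3.70 and 4.00.

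Meg3 was read differently by its 3 probe sets. The probe set naming Meg3 alone had values of 5.42, 5.38, 5.09 and 5.05 in the 4 arrays, all under the floor, with a 5FU difference of -0.33 in each genotype. A probe set naming Meg3 and Mir770 had 6.78, 6.57, 5.74 and 5.80, with differences of -1.04 and -0.77. The last, naming Meg3 with Mir1906-1 and Mir1906-2, had 5.99, 5.33, 4.55 and 4.30, with differences of -1.44 and -1.03. All 3 were lower at day 8 in both genotypes and they disagree on the size. Because the latter probe sets name several genes, their values belong to the probe sets and not to Meg3 alone. Rian, a noncoding RNA downstream of Meg3 that is expressed from the same maternal copy, had 5.89, 5.32, 3.81 and 4.18, so it reached the floor only in the Ctrl basal array. Its 5FU differences were -2.08 and -1.14 (averaged -1.61 ± 0.32, limma adjusted p 0.0925), and the size is uncertain under the floor. Another probe set, naming Rian with DQ267100, lay under the floor between 4.48 and 4.73 and differed by -0.05 in each genotype. Rtl1 and Mirg of the same domain had no probe set naming 1 gene. Of their shared probe sets that passed the floor, Rtl1 with Mir431 differed by -0.15 and -0.23. Rtl1 with Mir432 differed by -0.02 and -0.63, and Mirg with Mir134 by 0.28 and -0.46.

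**Figure D2:**
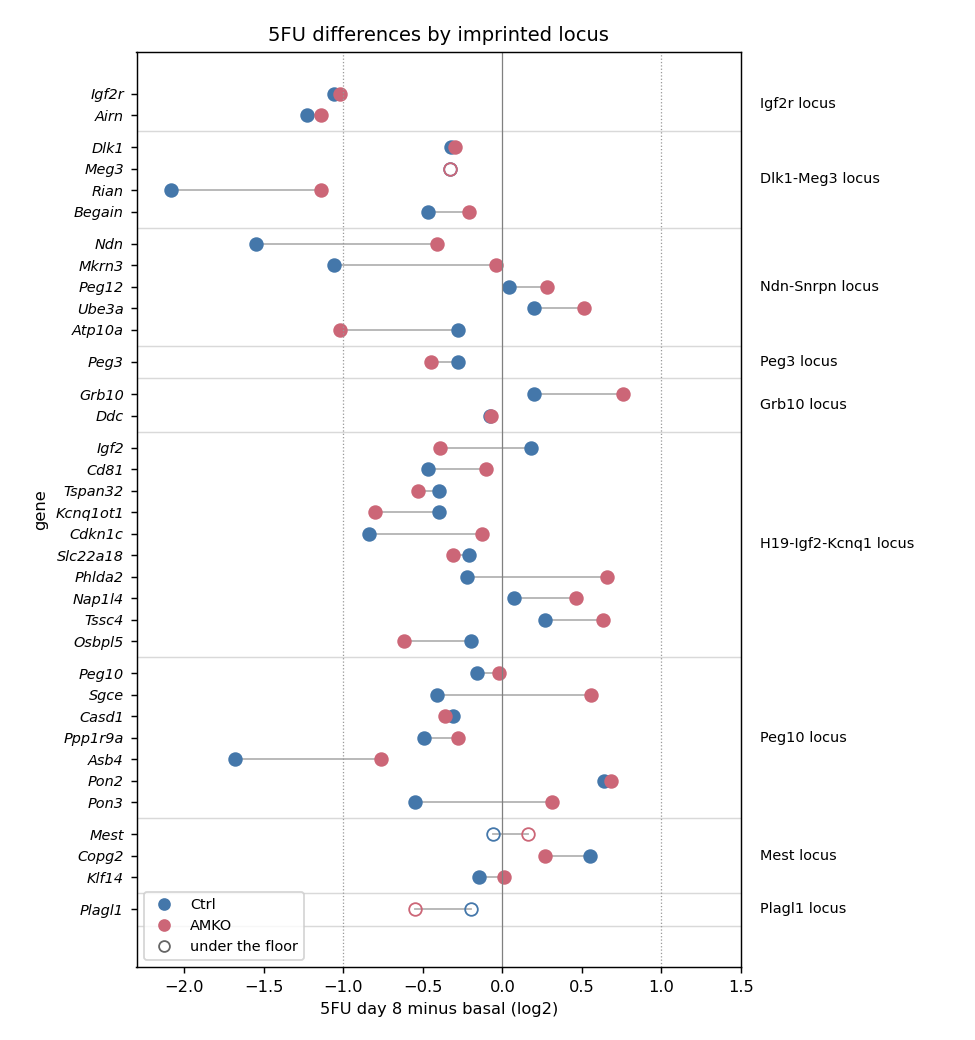
Day 8 minus basal log2 difference in Ctrl (blue) and AMKO (red) for the imprinted genes of 9 loci, 1 row per gene, with open circles for genes under the floor and dotted lines at a 2-fold difference. Igf2r and Airn lie beyond the left line in both genotypes, with Rian; Ndn, Mkrn3 and Asb4 lie beyond it in Ctrl, and Atp10a in AMKO.

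H19, Plagl1 and Mest gave no value above the floor. The probe set for H19 also names Mir675, the microRNA processed from an H19 exon, and had 4.97, 5.12, 5.01 and 4.92 in the 4 arrays. Its 5FU differences were 0.04 and -0.20. Plagl1 had 4.73, 5.11, 4.53 and 4.56, and a second probe set between 2.67 and 2.81. Mest had 4.63, 4.83, 4.57 and 4.99. A difference between values under the floor has an uncertain size, so none is read for these 3 genes.

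The hairpins that share a probe set with a member give these mature microRNAs, copied from RefSeq (GRCm38.p6), 5′ to 3′, with the seed at bases 2 to 8 in capitals. They are shown because their host transcripts cannot be told apart from them on these probe sets.
mmu-miR-675-5p: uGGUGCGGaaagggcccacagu
mmu-miR-675-3p: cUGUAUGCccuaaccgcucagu
mmu-miR-770-5p: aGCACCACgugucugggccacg
mmu-miR-770-3p: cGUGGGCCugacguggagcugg
mmu-miR-1906: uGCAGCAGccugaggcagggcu
No seed is shared among them. Igf1r, the IGF1 receptor gene and a known target of the H19-derived microRNA, is described below.

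Counted over the members that passed the floor, 2 of 5 were at least 2-fold lower after 5FU in Ctrl (Ndn and Igf2r) and 1 of 5 in AMKO (Igf2r). Over all 14061 genes, the share at least 2-fold lower was 4.46% in Ctrl and 3.55% in AMKO. No member was at least 2-fold higher, against 5.02% and 4.69% of genes, so that 9.48% and 8.24% of genes differed by 2-fold either way. The difference was below 0 in both genotypes for 4 of 5 members, as for 33.7% of genes. The median 5FU difference of the 5 members was -0.32 in Ctrl and -0.41 in AMKO, against 0.01 and 0.03 over all genes past the floor. Both day 8 arrays lay below both basal arrays for 3 members (Igf2r, Peg3 and Ndn), a pattern that 27.7% of genes had, and above them for Grb10, as in 32.0% of genes. The limma model called 0 of 5 members and 0 of 14061 genes (0.0%) for 5FU after Benjamini-Hochberg adjustment. At an unadjusted p under 0.05 it had 2 of 5 members (Igf2r at 0.00337 and Ndn at 0.0484) and 27.8% of all genes. With 5 genes these shares carry little weight, and nothing is read from them as particular to imprinted genes.

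The other imprinted genes were read from a list of 74, of which 64 had a probe set naming 1 gene and 45 passed the floor. Their median 5FU difference was -0.28 in Ctrl and -0.04 in AMKO. In Ctrl 6 of 45 were at least 2-fold lower and 0 higher, and in AMKO 4 were lower and 1 higher. Over all genes past the floor, 4.46% in Ctrl and 3.55% in AMKO were lower, and 5.02% and 4.69% higher. Both day 8 arrays lay below both basal arrays for 23 of the 45 genes and above them for 10, against 27.7% and 32.0% of all genes. Some of the lower ones, Airn, Rian and Asb4 among them, passed the floor only through basal arrays, so the counts are a description. Limma called 0 of 45, with 8 lower and 2 higher at an unadjusted p under 0.05. Of all 14061 genes, 1703 were lower and 2204 higher at that threshold. Nothing is read from these counts as particular to imprinted genes. Median centring moved the AMKO differences of all genes by 0.11, which is larger than the AMKO median of this list and turns its sign.

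Among these genes the low ones were spread over several chromosomes. Asb4, a maternally expressed ankyrin repeat gene, had 5.73, 5.90, 4.05 and 5.14 in the 4 arrays, with differences of -1.68 and -0.76. Nnat, the paternally expressed neuronatin gene, had 7.13, 6.73, 5.89 and 5.96, with differences of -1.24 and -0.77; a second probe set gave -0.11 and -0.14. Impact, an inhibitor of the kinase GCN2, differed by -1.14 in Ctrl and -0.04 in AMKO. Ampd3, an AMP deaminase, differed by -0.46 and -1.0. On the higher side were Gatm, the first enzyme of creatine synthesis (0.78 and 1.34), and Pon2, a paraoxonase of membranes (0.64 and 0.68).

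In the imprinted domains on distal chromosome 7 the differences were smaller. Cdkn1c, the maternally expressed CDK inhibitor p57 of quiescent stem cells, had 7.29, 6.91, 6.45 and 6.78, with 5FU differences of -0.84 in Ctrl and -0.13 in AMKO. Kcnq1ot1, the antisense RNA that silences Cdkn1c on the paternal copy, had 8.59, 8.60, 8.19 and 7.80, with differences of -0.40 and -0.80. Igf2, the ligand cleared by the Igf2r product, had 5.57, 5.89, 5.75 and 5.50, all just above the floor, and differences of 0.18 and -0.39. Phlda2, a maternally expressed growth restrainer, differed by -0.22 and 0.66.

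**Figure D3:**
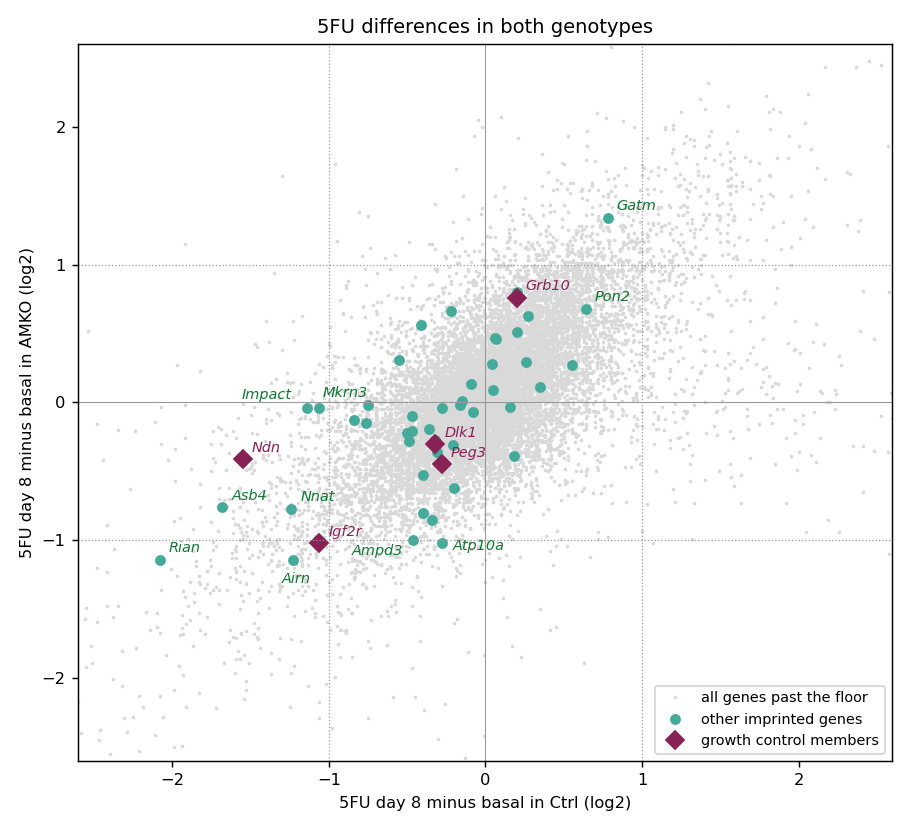
Day 8 minus basal log2 difference in Ctrl (x axis) against AMKO (y axis) for the 5 members past the floor (purple diamonds), 45 other imprinted genes (green) and all 14061 genes (grey; some lie beyond the axes), with dotted lines at a 2-fold difference. Igf2r and Airn sit together near -1 on both axes, Ndn lies at -1.55 in Ctrl and -0.41 in AMKO, and Grb10 at 0.20 and 0.76; the 2 axes share no array.

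The IGF and insulin pathway around Igf2r and Grb10 held 44 listed genes, of which 39 had a probe set naming 1 gene and 34 passed the floor. None was at least 2-fold higher or lower after 5FU in either genotype, against 9.48% of all genes in Ctrl and 8.24% in AMKO. The medians of the 34 were 0.04 in Ctrl and -0.16 in AMKO. Igf1r had log2 values of 9.47 in Ctrl basal, 9.42 in AMKO basal, 8.77 in Ctrl day 8 and 8.75 in AMKO day 8. Both day 8 arrays lay below both basal arrays, with differences of -0.70 and -0.67 (averaged -0.69 ± 0.12, limma adjusted p 0.0832). The insulin receptor gene Insr differed by -0.37 and -0.32. On the higher side, Grb2, the adaptor to Ras, differed by 0.57 and 0.65, Igfbp4, a secreted IGF-binding protein, by 0.45 and 0.80, Rheb, the GTPase that activates mTORC1, by 0.75 and 0.44, Pik3cb, a PI3-kinase subunit, by 0.35 and 0.71, and the translation repressor gene Eif4ebp1 by 0.45 and 0.55. Limma called 0 of the 34, with 1 lower and 5 higher at an unadjusted p under 0.05, where 1703 and 2204 of all 14061 genes were lower and higher.

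Genes that maintain imprints and related chromatin states included Hells, Uhrf1, Ezh2 and Rbbp4, each at least 2-fold higher in Ctrl or AMKO. Of 26 listed, 25 had a probe set naming 1 gene and 22 passed the floor. The number at least 2-fold higher was 3 in Ctrl and 2 in AMKO, against 5.02% and 4.69% of all genes, with none 2-fold lower in either. For 10 genes both day 8 arrays lay above both basal arrays and for 5 below them, against 32.0% and 27.7% of all genes. Hells, a helicase needed for DNA methylation, differed by 1.75 and 1.61, and Uhrf1, which brings DNMT1 to replicated DNA, by 1.32 and 0.98. The PRC2 methyltransferase Ezh2 differed by 1.0 and 0.97, its partner Rbbp4 by 0.61 and 1.19, the maintenance methyltransferase Dnmt1 by 0.55 and 0.66, and Smchd1 by 0.50 and 0.58. Limma called 0 of the 22, with 8 higher and 2 lower at an unadjusted p under 0.05, where 2204 and 1703 of all 14061 genes were higher and lower. Several of these genes, Hells, Uhrf1, Rbbp4 and Dnmt1 among them, are also known to be expressed with DNA replication.

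No member differed by 2-fold between AMKO and Ctrl at either time. Of all genes, 0.228% were 2-fold higher and 0.697% lower in AMKO at basal (0.925% either way), and 0.74% higher and 2.63% lower at day 8 (3.37%). At basal the differences ran from -0.48 for Ndn to 0.38 for Dlk1, with -0.15 for Grb10, -0.14 for Igf2r and 0.19 for Peg3. At day 8 they ran from -0.10 for Igf2r to 0.66 for Ndn, with 0.41 for Grb10, 0.40 for Dlk1 and 0.02 for Peg3. For scale, the absolute difference between the genotypes over all genes past the floor had a median of 0.17 and a 95th percentile of 0.63 at basal, and 0.19 and 0.79 at day 8, so every member lay within the 95th percentile at both times. Dlk1 was the member with both AMKO arrays above both Ctrl arrays, with 6.19 and 6.11 as the closest pair, a pattern that 12.9% of genes had; no member had both AMKO arrays below both Ctrl arrays, as 7.52% of genes did. Its averaged AMKO difference was 0.39 ± 0.16 (limma SE, adjusted p 0.906), and the limma adjusted p of the other 4 members lay between 0.929 and 0.979. Limma called 0 of 14061 genes (0.0%) for AMKO, with 3.17% at an unadjusted p under 0.05 and no member among them. Of the other imprinted genes, Asb4 alone was 2-fold different, higher by 1.09 in AMKO at day 8. Its values there, 4.05 in Ctrl and 5.14 in AMKO, both lay under the floor, so the size is uncertain.

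**Figure D4:**
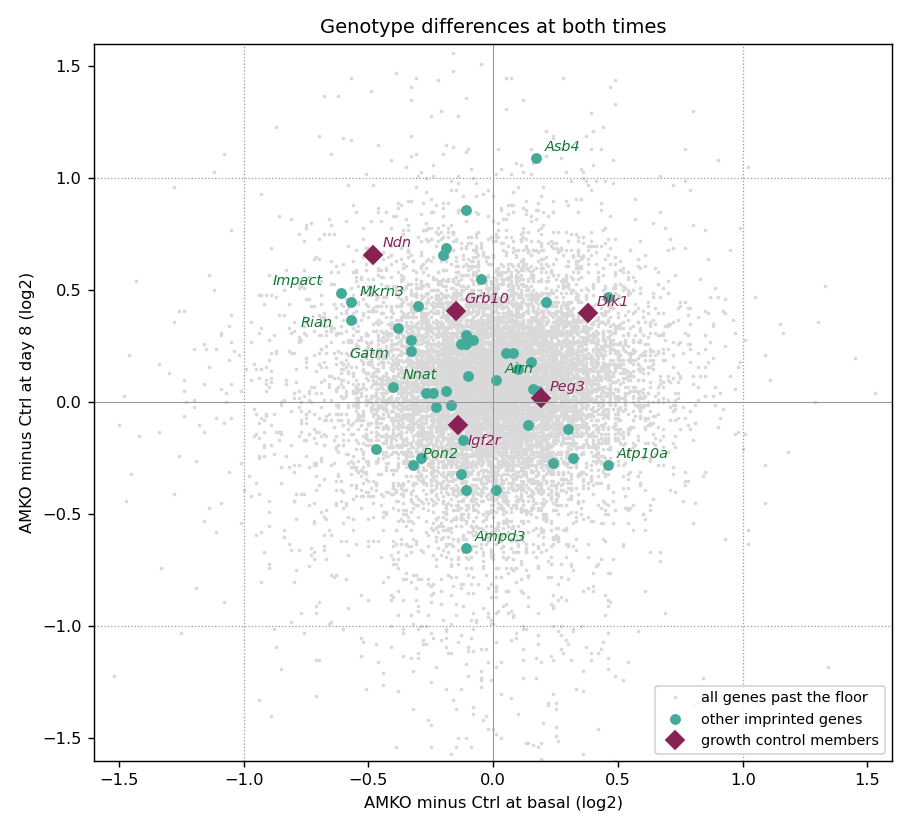
AMKO minus Ctrl log2 difference at basal (x axis) against day 8 (y axis) for the 5 members past the floor (purple diamonds), 45 other imprinted genes (green) and all 14061 genes (grey; some lie beyond the axes), with dotted lines at a 2-fold difference. Ndn lies at -0.48 and 0.66, Dlk1 at 0.38 and 0.40, and no member passes a dotted line.

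The genes nearest in pattern to Igf2r and Ndn were found by the Euclidean distance over the 4 log2 values after each gene was centred on its own mean. For Igf2r they were the BMP receptor gene Bmpr1a (distance 0.05, 5FU differences -1.07 and -0.97), the homeobox gene Zfhx2 (0.07, -1.04 and -1.0) and Denn2b (0.07, -1.02 and -1.05). For Ndn they were the G protein subunit gene Gng11 (0.06, -1.58 and -0.39), Dzip1 (0.12, -1.39 and -0.38) and Serpinb8 (0.12, -1.49 and -0.51). With 4 arrays, near neighbours are found for most patterns, so the names are a description.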

How the data were processed

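RNA from LSK cells was measured on 4 Affymetrix arrays, 1 per group. The cRNA was biotinylated, per the labels' protocols. The authors' deposited table holds 1 value per probe set and array, read as log2 from its range of 1.99 to 13.43; their background correction and normalization are not stated in the labels used. Array medians were 5.47 and 5.55 at basal (Ctrl, AMKO) and 5.43 and 5.44 at day 8, and the values were not rescaled. For arrays, their number limits the precision.

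Of 34472 probe sets, 23521 named 1 gene in the platform annotation, 1814 several and 9137 none; by Entrez identifier, 23328 received RefSeq symbols. A gene was read from its probe set naming 1 gene with the highest mean over the 4 arrays. The additive model was limma 3.58.1 (R 4.3.3; eBayes with trend; 1 residual and 2.62 prior degrees of freedom), adjusted by Benjamini-Hochberg over 14061 genes, and was tested on simulated data. Its error is the disagreement between genotypes, drawn toward a trend over all genes, so its p-values do not measure replicate spread.

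Besides the members, named genes were up to 6 per list by the smaller 5FU difference of 1 sign in both genotypes, any other imprinted gene at least 2-fold different in a comparison, and the 3 nearest patterns. Others, Peg12, Ube3a, Ddc, Cdkn1c, Kcnq1ot1, Igf2, Phlda2, Insr, the stem cell, monocyte, endothelial and stromal genes, S100a8 and Cxcr2 among them, were chosen after their values were seen, as were the CACGTG and TGACGTCA motifs and the 3-array fits without a Ctrl array, which have treatment as the sole term. Members and lists were chosen with earlier results of these data known.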

Additional observations from a re-analysis of the deposited data

Results flagged for a closer look

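Ndn and Grb10 had AMKO differences of opposite sign at the 2 times, each read from 1 array per group, and this was not tested. Ndn was lower in AMKO at basal (-0.48) and higher at day 8 (0.66), a gap of 1.14. For Grb10 the differences were -0.15 at basal and 0.41 at day 8, a gap of 0.56. The Ctrl basal array had high skeletal muscle markers and the Ctrl day 8 array high neutrophil and B-lineage markers, and their part in both gaps was not tested.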

How the results depend on the processing

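The alternatives were quantile normalization, median centring, a higher floor (7.32, the 75th percentile) or none, averaging the probe sets of a gene, a 1.5-fold size and, for limma, no trend or robust estimation. Every difference of the 5 members kept its sign in each alternative where the gene was read. The count of members at least 2-fold different after 5FU was 2 in Ctrl and 1 in AMKO. In AMKO it was 0 with quantile normalization and with median centring, where Igf2r stood at -0.99 and -0.91, and 2 at 1.5-fold. The higher floor left Grb10 alone to read and gave 0 in each genotype and 0, not 1, for the gap between the 5FU differences. At day 8 the AMKO count went from 0 to 1 at 1.5-fold. Limma's 5FU count of members went from 0 to 1 (Igf2r) with quantile normalization and with robust estimation, and its count of all genes from 0 to 926, 157 (median centring), 1293 (higher floor) and 1315 (robust). The cause was not tested. It was 0 without the Ctrl basal or the Ctrl day 8 array, where the averaged Ndn difference was -0.74 and -0.65 and that of Dlk1 -0.50 and -0.11.

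Over all genes, median centring moved the AMKO 5FU split from 56.9% to 71.5% higher and the basal AMKO split from 24.6% to 13.5%. The higher floor cut the genes read from 14061 to 8228. The 2-fold counts between genotypes went from 130 to 74 at basal and from 474 to 260 at day 8. That of the gap went from 774 to 417. Fewer genes were read, so the lower counts alone do not show smaller shares. A 1.5-fold size gave 3352 in Ctrl and 3636 in AMKO for 5FU. Between genotypes it gave 863 at basal and 1332 at day 8, and 2465 for the gap. No paired analysis was possible because each group is 1 array and the labels give no replicate numbers; the genotype term of the limma model is its only block.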

Other observations

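The domain between Dlk1 and Dio3 holds a long series of noncoding RNAs expressed from the maternal copy, and 53 of its genes, Meg3 included, had a probe set naming 1 gene. This interval was chosen after the values of Meg3 and Rian were seen. Of the 53, 18 passed the floor, 13 of them microRNA genes. Several, Rian and Mir493 among them, passed only through basal arrays, so no count of directions is read from the 18.

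Rian, by its probe set naming 1 gene, and Mir329 were at least 2-fold lower in both genotypes, as were 1.98% of all genes. Both AMKO values of Rian lay under the floor, so the size of its AMKO difference is uncertain. Mir329 had log2 values of 7.59 and 7.25 in Ctrl and AMKO at basal, and 5.66 and 5.88 at day 8, with differences of -1.93 and -1.37. Its mature products are shown with the seed in capitals, from RefSeq (GRCm38.p6); whether the probe set reads the hairpin or a mature product is not given in the sources used here.
mmu-miR-329-5p: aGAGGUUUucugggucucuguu
mmu-miR-329-3p: aACACACCcagcuaaccuuuuu
The C/D-box small nucleolar RNA gene AF357425 had 6.94, 6.63, 3.88 and 5.70 in the same order, with differences of -3.06 and -0.93. Its Ctrl day 8 value lay under the floor, so the size of its Ctrl difference is uncertain. Mir493 had 3.92, 5.73, 3.33 and 3.59, so its difference of -2.14 in AMKO rests on the AMKO basal array, the sole one above the floor. On the other side, Mir409 differed by 0.47 and 0.44 and Mir540 by 0.20 and 0.22.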
